A study of Mus musculus with 24 samples.

Results

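The genes described here are 10 members of the bone morphogenetic protein (BMP) pathway, taken by symbol from a table of 26264 genes: the ligand *Bmp4*, the receptor *Bmpr1a*, the inhibitors *Bambi* and *Smad6*, and the target genes *Id1*, *Id2*, *Id3*, *Id4*, *Msx1*, and *Msx2*. All 10 were found and all 10 passed the filter on low counts. They were measured by RNA-seq in mouse embryonic stem cells (ESCs) of the BAP1-AID and UTX-AID lines, in which the histone H2A deubiquitinase BAP1 or the H3K27 demethylase UTX carries an auxin-inducible degron tag and the plant F-box protein TIR1 is present, so that the auxin indole-3-acetic acid (IAA) brings the tagged protein to degradation. Each line was collected at 0, 3, and 6 h of retinoic acid (RA), either without IAA (−IAA) or with IAA (+IAA), with 2 replicates in each of the 12 groups and 24 libraries in all. The +IAA cells received 100 µg/ml IAA dissolved in ethanol, starting 2 h before RA, and RA was used at 2 µM with leukemia inhibitory factor (LIF) left out, so that RA and the loss of LIF cannot be told apart. A vehicle for the −IAA cells is not given in the sources used here. Each line is a single clone, and an untagged line was not analysed here, so an effect of the tag and a difference between clones cannot be told apart. The study used this time course to ask whether genes are activated by RA with and without BAP1 or UTX.

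BMP ligands bind receptors such as BMPR1A, which phosphorylate SMAD1 and SMAD5. These enter the nucleus with SMAD4 and activate target genes, among which the *Id* genes are the best known in ESCs. ID proteins lack a DNA-binding domain and hold basic helix-loop-helix factors in inactive pairs, and BMP together with LIF supports self-renewal of mouse ESCs by this route. BAMBI is a pseudoreceptor without a kinase domain, SMAD6 is an intracellular inhibitor that is itself a target of the pathway, and MSX1 and MSX2 are homeobox repressors induced by BMP in many embryonic tissues.

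The promoters of *Id1*, *Id2*, and *Id3* are shown because these genes carried the largest counts among the targets and responded to RA at different times. Each stretch runs 5′ to 3′ on the strand of the gene in GRCm39. It goes from 250 bases before the start of the canonical GENCODE transcript to the first 30 bases of that transcript, which are annotated as exon 1. Gene positions given further below span the whole annotated gene, and exon counts are those of the canonical transcript. The annotated *Id1* gene therefore begins upstream of its stretch. *Id1* lies on the plus strand (chr2:152577915-152578194), *Id2* on the minus strand (chr12:25147253-25147532), and *Id3* on the plus strand (chr4:135870558-135870837). Capitals mark GGCGCC, the GC-rich letters bound by SMAD1 and SMAD5, and AGGTCA, the half-site of nuclear receptors such as the RA receptors, on either strand (TGACCT is AGGTCA on the opposite strand).
Id1: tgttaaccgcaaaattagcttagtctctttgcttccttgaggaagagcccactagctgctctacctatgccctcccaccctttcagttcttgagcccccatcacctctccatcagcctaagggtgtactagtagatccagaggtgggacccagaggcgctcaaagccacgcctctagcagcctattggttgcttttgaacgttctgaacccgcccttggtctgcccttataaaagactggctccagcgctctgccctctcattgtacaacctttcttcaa
Id2: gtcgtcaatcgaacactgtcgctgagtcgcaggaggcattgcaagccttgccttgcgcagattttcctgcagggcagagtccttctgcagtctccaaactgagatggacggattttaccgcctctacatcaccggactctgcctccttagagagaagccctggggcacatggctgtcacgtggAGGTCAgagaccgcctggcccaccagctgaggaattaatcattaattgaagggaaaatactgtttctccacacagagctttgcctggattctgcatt
Id3: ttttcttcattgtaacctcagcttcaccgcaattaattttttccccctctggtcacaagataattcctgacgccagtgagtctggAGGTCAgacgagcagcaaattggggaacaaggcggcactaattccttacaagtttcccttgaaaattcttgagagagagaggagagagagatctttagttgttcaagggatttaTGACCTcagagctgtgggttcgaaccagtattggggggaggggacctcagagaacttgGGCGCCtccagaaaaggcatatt

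In the window from 250 bases before to 50 bases after the start, GGCGCC was present in 12.4% and AGGTCA in 15.1% of 21738 promoters, and the palindrome GTCTAGAC in 0.267%. The *Id1* window held none of these letters. The *Id2* window held AGGTCA at 1 place, and the *Id3* window held AGGTCA at 2 places and GGCGCC at 1. Among the other members, GGCGCC was present at 1 place in the windows of *Id4* and *Bambi* and at 3 places in that of *Bmpr1a*, and GTCTAGAC was in no member's window. These matches are a description of the letters and not of binding.

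The deposited counts of a library summed to 48.4 to 52.8 M in BAP1-AID and 42 to 54 M in UTX-AID. Levels are given in CPM (counts divided by the TMM-scaled library size in M). A floor of 3 counts per library was 0.0555 to 0.0714 CPM and covers counting error only. All 10 ESC markers examined, including *Pou5f1*, *Nanog*, and *Esrrb*, had a median above 1 CPM in both lines, and over the 12 libraries of a line their summed level was 4280 to 5290 CPM in BAP1-AID and 4500 to 5000 CPM in UTX-AID. The degron removes a protein and leaves its mRNA, so these libraries do not check the depletion itself. Nothing states that the replicates were separate cultures, so p-values measure only the spread between these libraries, which may be technical. Adjusted p-values come from the quasi-likelihood test of edgeR and were adjusted by the Benjamini-Hochberg method over all genes of the fit, and a gene is said to have risen, fallen, or differed when that value was under 0.05. In bulk RNA, fewer cells expressing a gene and less RNA per cell cannot be told apart. The plot of CPM by RA time shows every library for the 10 genes.

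**Figure D1:**
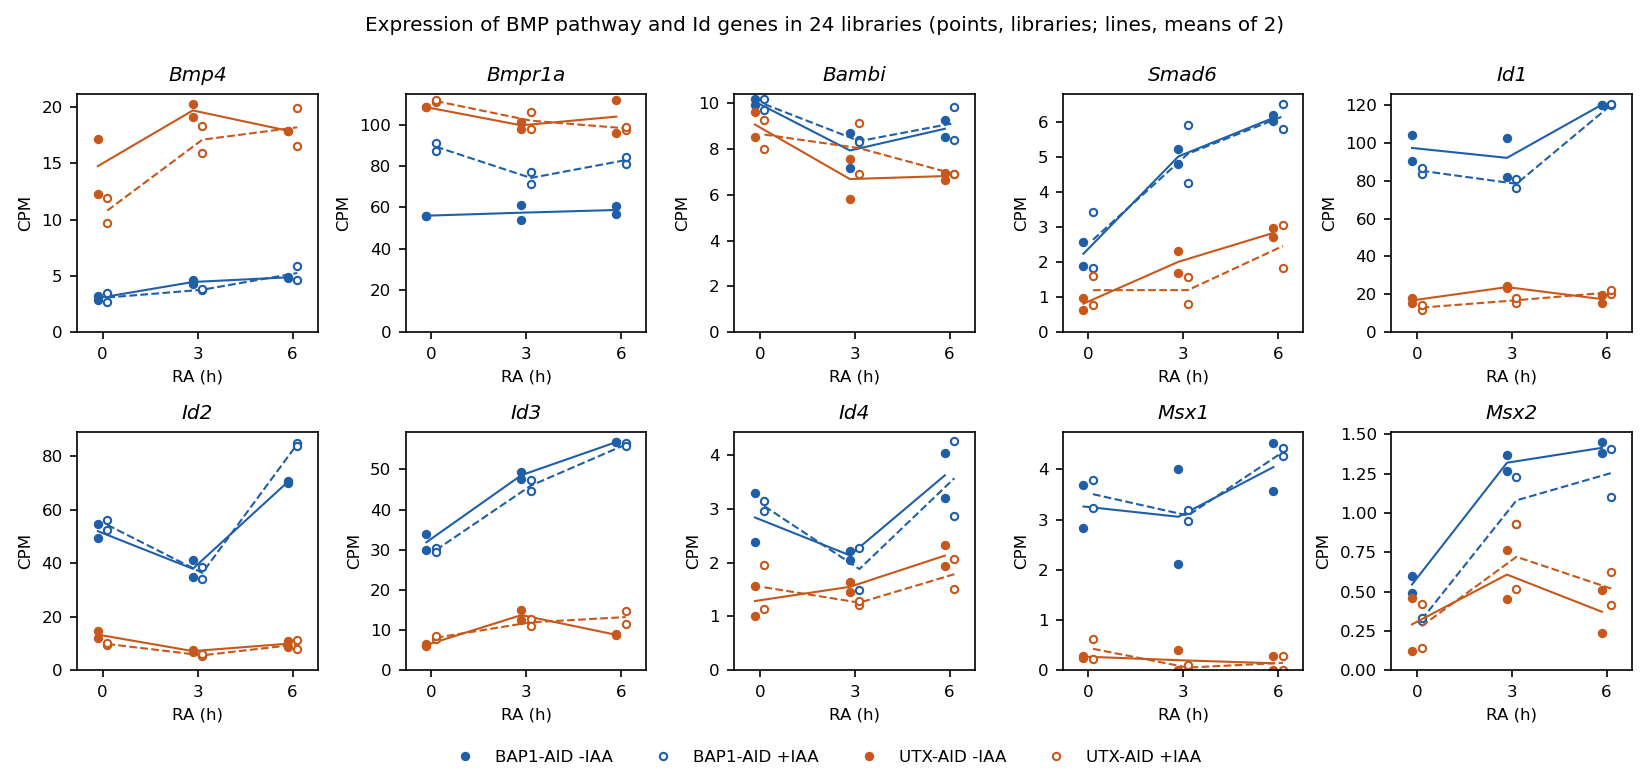
CPM (y axis, linear from 0) against hours of RA (x axis) for each of the 10 genes; points are libraries, lines join the means of 2 replicates, filled points are −IAA and open points +IAA, with BAP1-AID in blue and UTX-AID in orange. *Id1*, *Id2*, *Id3*, and *Msx1* lay lower in all 12 UTX-AID libraries than in all 12 BAP1-AID libraries, and *Bmp4* and *Bmpr1a* lay higher.

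The largest differences among these genes lay between the lines before RA was given. At 0 h without IAA, UTX-AID ESCs had 5.85-fold less *Id1*, 5.08-fold less *Id3*, and 3.92-fold less *Id2* than BAP1-AID ESCs, but 4.89-fold more *Bmp4*, the ligand. In all, 8 of the 10 members differed, 2 of them higher and 6 lower in UTX-AID, and 7 differed by more than 2-fold. The lines differed widely: 25.4% of the 16816 genes tested were higher and 27.2% lower in UTX-AID, and 20.9% passed both the test and 2-fold. The median log2 difference was −1.30 over the 10 members and 0.014 over all genes tested. Over all RA times and both IAA arms, 6 of the 10 members had every library of one line above every library of the other, which held for 33.6% of all genes tested.

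*Bmp4* (chr14:46620250-46636745, minus strand, 4 exons) was at 2.87 and 3.16 CPM in the BAP1-AID and at 17.2 and 12.3 CPM in the UTX-AID replicates (log2 difference 2.29, SE 0.176, adjusted p = 1.54e-10). The UTX-AID libraries were clearly above, although their replicates spread more. The locus overlaps the antisense lncRNA genes *Gm15217* and *Gm15222*, which are also listed in the table, and the strandedness of the libraries is not given in the sources used here, so reads of *Bmp4* and of these RNAs cannot be told apart. The other members except *Msx1* and *Smad6* overlap antisense lncRNA genes of the annotation too, none of which is listed in the table.

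*Bmpr1a* (chr14:34132687-34225379, minus strand, 13 exons), which encodes the type I receptor, was at 56.1 and 56.0 CPM in BAP1-AID and at 108.2 and 108.5 CPM in UTX-AID (log2 difference 0.95, SE 0.0798, adjusted p = 6.87e-10). This 1.93-fold difference was not kept with offsets for GC content and transcript length together, which gave 0.15 (SE 0.077, adjusted p = 0.106), whereas *Id1*, *Id2*, *Id3*, and *Bmp4* moved only to −2.26, −2.12, −2.04, and 2.62. The canonical *Bmpr1a* transcript has a GC content of 42.1%, against a median of 50.5% over genes, and is the longest among the members at 6073 nt. The parts of GC content and length in this value were not tested apart.

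*Bambi* (chr18:3507871-3516404, plus strand, 3 exons) was at 9.95 and 10.2 CPM in BAP1-AID and at 8.51 and 9.64 CPM in UTX-AID. The groups did not overlap but lay close together, and the log2 difference of −0.15 (95% interval −0.49 to 0.19, adjusted p = 0.453) did not pass the test. With the GC and length offsets it was −0.58 (SE 0.165, adjusted p = 0.00547). *Smad6* (chr9:63860341-63929793, minus strand, 4 exons) was at 2.58 and 1.89 CPM in BAP1-AID and at 0.98 and 0.637 CPM in UTX-AID, so all BAP1-AID values were above (log2 difference −1.47, SE 0.389, adjusted p = 0.00277).

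*Id1* (chr2:152566218-152579544, plus strand, 2 exons) was the member with the highest level in BAP1-AID, at 104.4 and 90.4 CPM, and was at 18.0 and 15.4 CPM in UTX-AID (log2 difference −2.55, SE 0.125, adjusted p = 7.48e-14). *Id2* (chr12:25143798-25147282, minus strand, 3 exons) was at 54.6 and 49.2 CPM and at 14.5 and 12 CPM, respectively (log2 difference −1.97, SE 0.14, adjusted p = 4.49e-11). *Id3* (chr4:135870808-135873066, plus strand, 3 exons) was at 33.8 and 29.9 CPM and at 6.09 and 6.43 CPM (log2 difference −2.35, SE 0.118, adjusted p = 1.19e-13). For these 3 genes the lines were far apart compared with the spread between replicates.

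*Id4* (chr13:48414558-48419502, plus strand, 3 exons), the family member best known from neural and mammary progenitors, was at 2.39 and 3.29 CPM in BAP1-AID and at 1.56 and 1.01 CPM in UTX-AID (log2 difference −1.14, SE 0.325, adjusted p = 0.00485). Its call was lost when replicate 2 of either group was left out (adjusted p = 0.0651 without that of BAP1-AID and 0.0866 without that of UTX-AID). *Msx1* (chr5:37977829-37981928, minus strand, 2 exons) was at 3.68 and 2.84 CPM in BAP1-AID but at 0.25 and 0.288 CPM in UTX-AID, which are 12 and 14 counts (log2 difference −3.59, SE 0.856, adjusted p = 0.00109). Across the course, *Msx1* was at 0 in 4 of the 12 UTX-AID libraries and between 2.11 and 4.52 CPM in the 12 BAP1-AID libraries, so no RA response of *Msx1* is given for UTX-AID. *Msx2* (chr13:53620914-53627110, minus strand, 2 exons) was low in both lines, at 0.597 and 0.493 CPM and at 0.459 and 0.123 CPM (log2 difference −0.90, 95% interval −2.28 to 0.48, adjusted p = 0.249). Without replicate 1 of UTX-AID, its difference was −2.15 and passed (adjusted p = 0.0395).

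Per kb of canonical transcript, *Id1* led in BAP1-AID at 84.4 ± 8.55 CPM per kb (SD, n = 2), followed by *Id3* at 24.9 ± 2.14, *Id2* at 21.1 ± 1.55, and *Bmpr1a* at 9.23 ± 0.0207 CPM per kb. Then came *Bambi*, *Msx1*, *Bmp4*, *Smad6*, *Id4*, and *Msx2*, from 1.97 down to 0.222 CPM per kb, with only *Smad6* and *Id4* overlapping between neighbours. In UTX-AID, *Bmpr1a* led at 17.8 ± 0.0387 CPM per kb, ahead of *Id1* at 14.4 ± 1.59. There, *Id2* (5.38 ± 0.726), *Bmp4* (5.28 ± 1.22), and *Id3* (4.90 ± 0.191 CPM per kb) overlapped their neighbours in the order; the ligand and these 2 targets could not be ordered beyond the spread of the replicates. Below them lay *Bambi* at 1.77 CPM per kb and *Id4*, *Smad6*, *Msx1*, and *Msx2* at 0.322 CPM per kb and less.

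**Figure D2:**
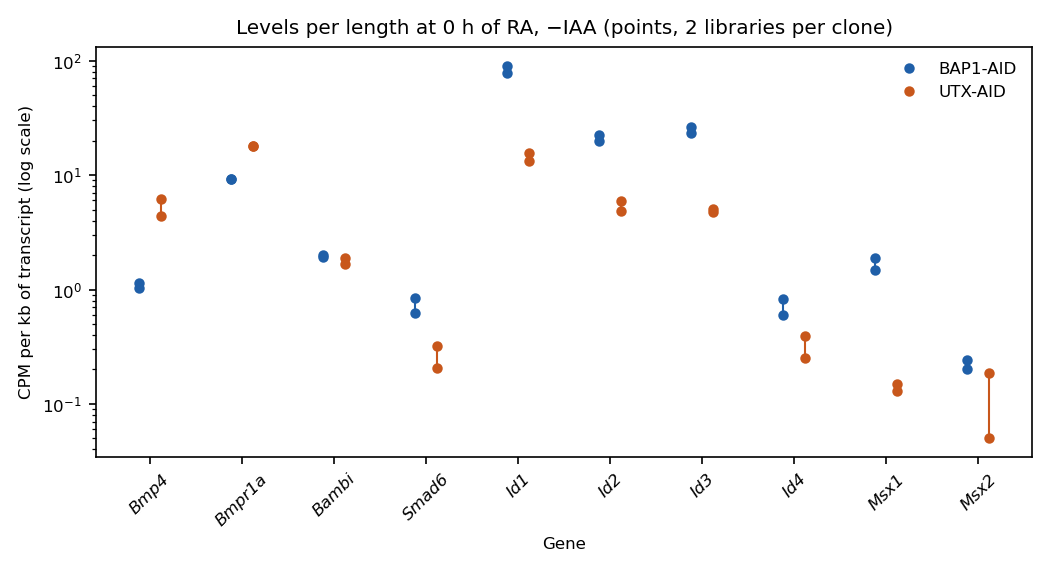
CPM per kb of canonical transcript (y axis, log scale) for the 10 genes (x axis) at 0 h of RA without IAA; points are the 2 libraries of BAP1-AID (blue) and UTX-AID (orange), joined by a line. *Id1* was at 84.4 CPM per kb in BAP1-AID and 14.4 in UTX-AID on average, and *Bmp4* at 1.08 and 5.28.

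Marker lists of other cell types were also unequal between the lines at 0 h without IAA. The summed level of 8 fibroblast markers was 12.1 to 12.3 CPM in BAP1-AID and 6.93 to 7.17 CPM in UTX-AID. Medians over all 12 libraries of a line, at all RA times and in both IAA arms, were above 1 CPM for 2 of them in each line. The highest were *Dcn* in BAP1-AID at 6.49 CPM and *Thy1* in UTX-AID at 2.73 CPM. *Col1a2*, *Col3a1*, *Postn*, *Lum*, and *Col6a1* had such medians under 0.1 CPM in both lines. At 0 h without IAA, the sum of 6 neural progenitor markers was 54.4 to 69.7 CPM and 38.6 to 40.6 CPM, respectively. That of 8 trophoblast markers was 24.7 to 26.5 CPM and 20 to 21.2 CPM. For 6 mesoderm markers it was 5.29 to 5.38 CPM and 3.67 to 4.89 CPM. The 8 primitive endoderm markers went the other way, with 21.4 to 23.3 CPM in BAP1-AID and 29.7 to 32.8 CPM in UTX-AID. Over all 12 libraries of a line, the median was above 1 CPM for 4 of 8 trophoblast markers in each. The highest were *Tfap2c* at 10.4 CPM in BAP1-AID and *Krt8* at 6.17 CPM in UTX-AID. This median was above 1 CPM for 4 of 6 neural markers in BAP1-AID and 3 in UTX-AID (led by *Nes* at 37.4 and 18.4 CPM). The same held for 1 of 6 mesoderm markers in each (*Twist1* at 3.60 and 1.74 CPM). It also held for 4 and 3 of 8 primitive endoderm markers (led by *Lama1* at 17.4 and 27.3 CPM). *Mesp1*, *Hand2*, *Neurog2*, and *Elf5* had medians under 0.1 CPM in both lines. The part of other cell types in the differences of the BMP genes was not tested.

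**Figure D3:**
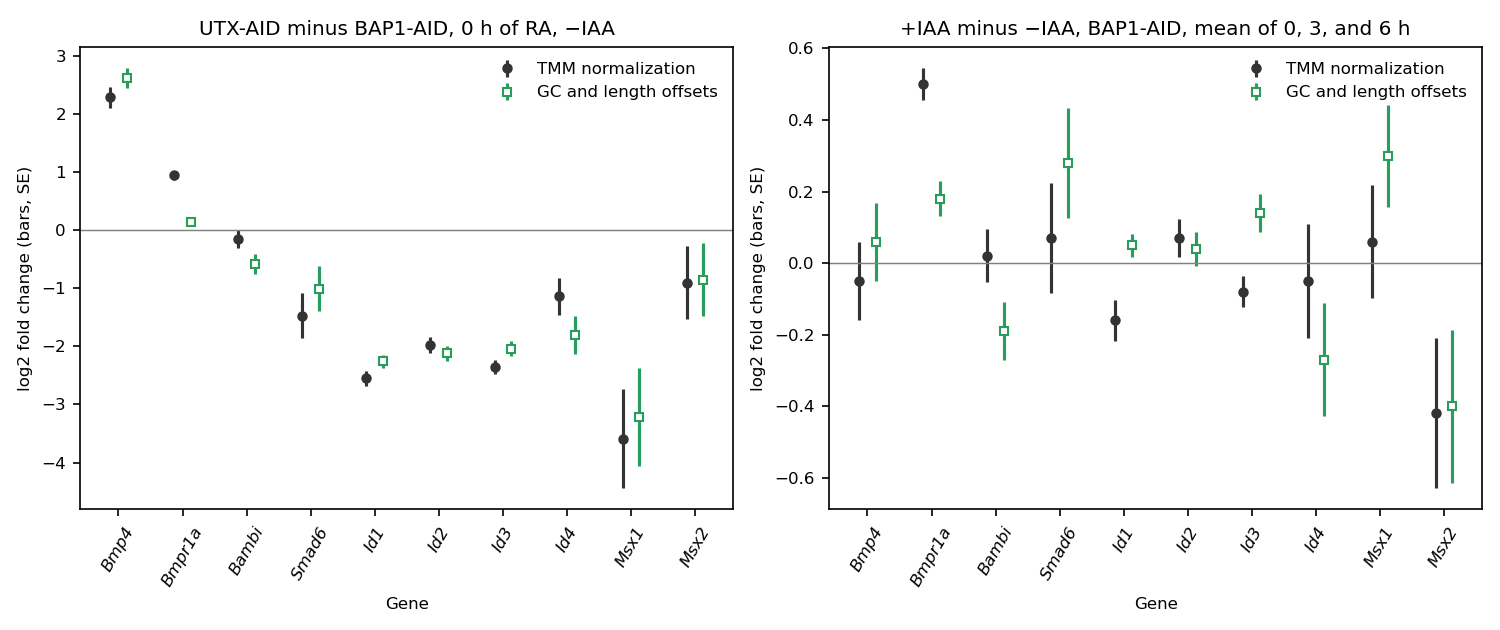
Log2 fold change (y axis, bars are SE) of each gene (x axis) for UTX-AID minus BAP1-AID at 0 h without IAA (left) and for +IAA minus −IAA in BAP1-AID averaged over RA times (right), with TMM normalization (filled circles) and with GC and length offsets (open squares). *Bmpr1a* moved from 0.95 to 0.15 on the left and from 0.50 to 0.18 on the right, and *Id1*, *Id2*, and *Id3* stayed below −1.9 on the left.

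In BAP1-AID ESCs, *Id3*, *Smad6*, *Bmp4*, *Msx2*, and *Id1* rose after RA, and *Id2* fell at 3 h and rose at 6 h. Without IAA, 2 of the 10 members rose and 1 fell after 3 h, and 6 rose after 6 h, 2 of them by more than 2-fold. Of all 15695 genes tested, 5.51% were higher and 1.85% lower after 3 h, 10.8% were higher after 6 h, and 4.1% passed the test and 2-fold in either direction at 6 h. The median log2 fold change over the 10 members was −0.01 at 3 h and 0.42 at 6 h, against 0.002 and 0.016 over all genes tested. The comparisons at 3 and 6 h share the 0 h libraries. From 0 to 6 h in these libraries, the summed markers went from 12.1 to 12.3 CPM to 8.15 to 8.42 CPM for fibroblasts, from 5.29 to 5.38 CPM to 3.48 to 4.17 CPM for mesoderm, from 21.4 to 23.3 CPM to 27.6 to 31.1 CPM for primitive endoderm, from 24.7 to 26.5 CPM to 30.4 to 30.6 CPM for trophoblast, and from 54.4 to 69.7 CPM to 71.8 to 73.6 CPM for neural progenitors. The summed ESC markers went from 4700 to 5100 CPM to 4470 to 4480 CPM. The part of other cell types in the RA responses was not tested.

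The ligand *Bmp4* was at 2.87 and 3.16 CPM at 0 h, at 4.27 and 4.62 CPM at 3 h, and at 4.84 and 4.88 CPM at 6 h of RA without IAA. All later values were above those at 0 h. Its log2 fold change was 0.58 at 3 h (SE 0.188, adjusted p = 0.099) and 0.72 at 6 h (SE 0.188, adjusted p = 0.0214), and the call at 6 h was lost without any of the 4 libraries compared (adjusted p = 0.0561 to 0.137). *Bmpr1a* stayed between 53.9 and 61.1 CPM in these 6 libraries (log2 fold change at 6 h 0.10, adjusted p = 0.483), and *Bambi* between 7.19 and 10.2 CPM (−0.15, adjusted p = 0.503).

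*Smad6*, the inhibitor, was at 2.58 and 1.89 CPM at 0 h, at 4.79 and 5.24 CPM at 3 h, and at 6.03 and 6.20 CPM at 6 h. The 3 times did not overlap, and it rose 2.27-fold at 3 h (log2 1.18, SE 0.272, adjusted p = 0.0198) and 2.79-fold at 6 h (log2 1.48, SE 0.272, adjusted p = 0.00271). Without the 0 h replicate 2 library, the adjusted p at 3 h was 0.152. *Msx2* was at 0.597 and 0.493 CPM at 0 h, at 1.37 and 1.27 CPM at 3 h, and at 1.45 and 1.38 CPM at 6 h, all later values being higher than both values at 0 h. Its log2 fold change was 1.29 at 3 h (SE 0.364, adjusted p = 0.0533, and 0.0402 with GC and length offsets), which DESeq2 called (adjusted p = 0.0348), and 1.40 at 6 h (SE 0.363, adjusted p = 0.0203). The 6 h call was lost without any of the 4 libraries compared (adjusted p = 0.0653 to 0.101) and with all 24 libraries in one fit (adjusted p = 0.14). *Msx1* was between 2.11 and 4.52 CPM, and its log2 fold change of 0.34 at 6 h did not pass the test (adjusted p = 0.478).

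*Id3* went from 33.8 and 29.9 CPM at 0 h to 47.7 and 49.4 CPM at 3 h and 56.8 CPM in both replicates at 6 h. The 3 times did not overlap, and the rise was 1.54-fold at 3 h (log2 0.63, SE 0.0752, adjusted p = 0.00019) and 1.82-fold at 6 h (log2 0.86, SE 0.0752, adjusted p = 7.7e-06). *Id2* took another course, with 54.6 and 49.2 CPM at 0 h, 34.7 and 41.0 CPM at 3 h, and 70.8 and 69.8 CPM at 6 h. It fell 1.36-fold at 3 h (log2 −0.44, SE 0.0934, adjusted p = 0.0119) and was 1.38-fold above the start at 6 h (log2 0.47, SE 0.0925, adjusted p = 0.00438). The fall lost its call without the 0 h replicate 1 library (adjusted p = 0.103), and the later rise without the 6 h replicate 1 library (adjusted p = 0.0563). Between 3 and 6 h, *Id2* rose 1.87-fold (log2 0.91, SE 0.0935, adjusted p = 0.000407). It was the only member of the 10 that passed between these times without IAA, where 1.98% of all genes did. *Id1* was next with a log2 fold change of 0.40 (adjusted p = 0.0674), which was 0.57 and passed without the 3 h replicate 1 library (adjusted p = 0.00113), and 0.53 with GC and length offsets (adjusted p = 0.000294).

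*Id1* was at 104.4 and 90.4 CPM at 0 h, at 102.5 and 81.8 CPM at 3 h, and at 120.3 CPM in both replicates at 6 h. The values at 0 and 3 h overlapped (log2 −0.06, adjusted p = 0.857), and those at 6 h were above both (log2 0.33, SE 0.0988, adjusted p = 0.0392). This 1.26-fold rise was lost in 9 of the 12 fits that left out 1 library (the 6 +IAA libraries, the 0 h replicate 2 library, and both 6 h libraries), with adjusted p = 0.0885 to 0.229, and with all 24 libraries in one fit (adjusted p = 0.08). *Id4* was at 2.05 to 4.04 CPM with overlapping times (log2 0.38 at 6 h, 95% interval −0.29 to 1.05, adjusted p = 0.428).

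With IAA, 3 members were called in BAP1-AID at 3 h. *Id3* (log2 0.65, adjusted p = 0.000132) and *Msx2* (log2 1.77, adjusted p = 0.014) rose and *Id2* fell (log2 −0.55, adjusted p = 0.00287), while the log2 fold change of *Smad6* was 0.98 (adjusted p = 0.0528, and 0.0109 without the +IAA 0 h replicate 2 library). Of all genes tested, 4.61% were higher and 1.91% lower. At 6 h with IAA, 6 members rose, where 8.93% of all genes did. These were *Id1* (log2 0.51, adjusted p = 0.00338), *Id2* (0.66, 0.000338), *Id3* (0.93, 3.73e-06), *Bmp4* (0.80, 0.012), *Smad6* (1.25, 0.00707), and *Msx2* (1.98, 0.00339), the members that had also risen without IAA. The calls of *Bmp4* and *Smad6* were lost without the +IAA 0 h replicate 1 library (adjusted p = 0.133 and 0.0698) or the +IAA 6 h replicate 2 library (0.145 and 0.0559), and that of *Id1* without the +IAA 0 h replicate 1 library (0.05). The 3 h call of *Msx2* was lost without either +IAA 0 h library or the +IAA 3 h replicate 1 library (adjusted p = 0.0908 to 0.119) and with all 24 libraries in one fit (0.118). Between 3 and 6 h with IAA, *Id2* rose from 33.9 and 38.7 CPM to 85.0 and 83.9 CPM (log2 1.21, SE 0.094, adjusted p = 4.93e-05) and *Id1* from 76.1 and 80.7 CPM to 119.9 and 120.6 CPM (log2 0.61, SE 0.0993, adjusted p = 0.0045). These 2 of 10 members stand beside 4.96% of all genes in that comparison, and the call of *Id1* was lost without the +IAA 3 h replicate 1 library (adjusted p = 0.0579).

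**Figure D4:**
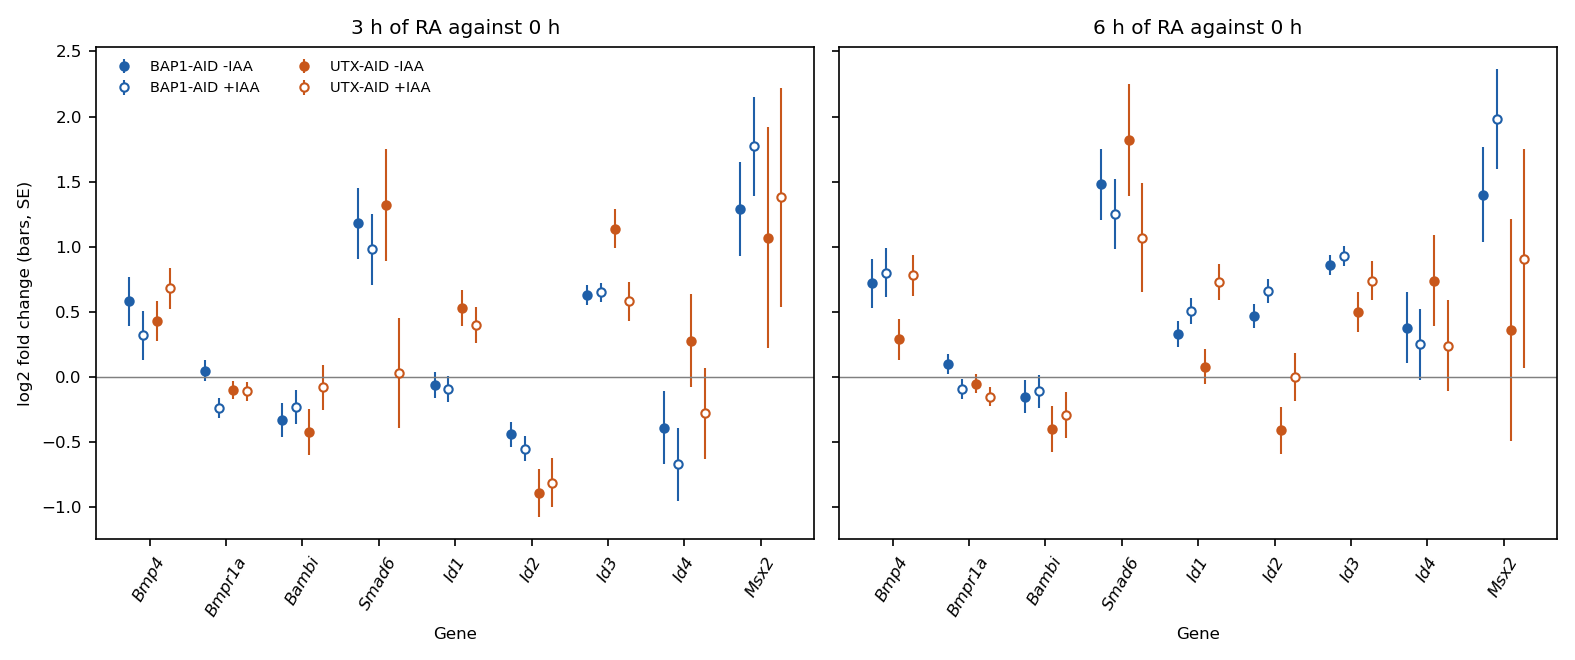
Log2 fold change from 0 h (y axis, bars are SE) after 3 h (left) and 6 h (right) of RA for 9 genes (x axis) in the 4 combinations of line and IAA arm; *Msx1*, at 0 in 4 UTX-AID libraries, is left out. *Id2* lay below 0 in all 4 combinations at 3 h, between −0.44 and −0.89, and at 0.47 and 0.66 in BAP1-AID at 6 h.

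In UTX-AID ESCs, *Id3* and *Id1* rose and *Id2* fell after 3 h of RA, and few members passed at 6 h. Without IAA, 2 members rose and 1 fell at 3 h, where 3.56% of the 16268 genes tested were higher and 1.28% lower. At 6 h, *Smad6* alone rose, and by more than 2-fold; 4.28% of all genes were higher, and 1.91% passed the test and 2-fold in either direction. The median log2 fold change over the members was 0.36 at 3 h and 0.18 at 6 h, against −0.006 and −0.003 over all genes tested. In the same libraries, from 0 to 6 h, the summed fibroblast markers went from 6.93 to 7.17 CPM to 3.36 to 4.28 CPM, mesoderm markers from 3.67 to 4.89 CPM to 2.54 to 2.71 CPM, and primitive endoderm markers from 29.7 to 32.8 CPM to 34.5 to 34.7 CPM. The trophoblast sum was 20 to 21.2 CPM and then 21.7 to 23.1 CPM, and the neural sum 38.6 to 40.6 CPM and then 39.6 to 42.7 CPM. The ESC sum was 4790 to 5000 CPM and then 4580 to 4660 CPM.

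*Id3* was at 6.09 and 6.43 CPM at 0 h, at 12.4 and 15 CPM at 3 h, and at 8.63 and 8.93 CPM at 6 h without IAA. The 3 h values were the highest, with a 2.21-fold rise (log2 1.14, SE 0.152, adjusted p = 0.000188), while the log2 fold change at 6 h was 0.50 (SE 0.153, adjusted p = 0.0672). Between 3 and 6 h its log2 fold change was −0.64 (SE 0.149, adjusted p = 0.0814). That comparison held 0 called members by edgeR, where 0.486% of all genes were called. An unadjusted p under 0.05 was found for 3 members and for 1582 of the 16268 genes tested. DESeq2 called 1, which was *Id3* (−0.64, adjusted p = 0.0231).

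*Id2* was at 14.5 and 12 CPM at 0 h, at 6.67 and 7.52 CPM at 3 h, and at 8.70 and 11 CPM at 6 h, so every later value lay below both values at 0 h. It fell 1.85-fold at 3 h (log2 −0.89, SE 0.185, adjusted p = 0.00873), and at 6 h the log2 fold change was −0.41 (SE 0.182, adjusted p = 0.25). The 3 h call was lost without the 0 h replicate 1 or the 3 h replicate 1 library (adjusted p = 0.081 and 0.0723). *Id1* was at 18.0 and 15.4 CPM at 0 h, at 23.2 and 24.3 CPM at 3 h, and at 15.2 and 19.6 CPM at 6 h. It was highest at 3 h (log2 0.53, SE 0.136, adjusted p = 0.0353) and overlapped the start at 6 h (log2 0.08, adjusted p = 0.874). The 3 h call was lost without the 0 h replicate 2 library or either 3 h library (adjusted p = 0.0946 to 0.277) and with the GC and length offsets (0.0515).

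*Smad6* was at 0.98 and 0.637 CPM at 0 h, at 1.69 and 2.32 CPM at 3 h, and at 2.96 and 2.70 CPM at 6 h. The 3 times did not overlap, and at 6 h it was 3.52-fold above the start (log2 1.82, SE 0.431, adjusted p = 0.016), a call lost without the 0 h replicate 2 or the 6 h replicate 1 library (adjusted p = 0.138 and 0.0689). *Bmp4* was at 17.2 and 12.3 CPM at 0 h and at 17.9 CPM in both replicates at 6 h (log2 0.29, adjusted p = 0.383). *Bmpr1a* was between 95.7 and 111.9 CPM over all 12 UTX-AID libraries. *Bambi* did not pass at 3 or 6 h, with log2 fold changes of −0.42 and −0.40 (adjusted p = 0.26 and 0.267), as did *Id4* at 0.28 and 0.74 (0.822 and 0.302) and *Msx2* at 1.07 and 0.36 (0.645 and 0.912).

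With IAA in UTX-AID, *Id3* (log2 0.58, adjusted p = 0.0416) and *Bmp4* (0.68, 0.0207) rose and *Id2* fell (−0.81, 0.0217) at 3 h, where 2.77% of all genes were higher and 0.799% lower. All 3 calls were lost without 1 of several libraries. For *Id3* these were the 4 libraries compared and either −IAA 6 h library (adjusted p = 0.0523 to 0.365), and GC and length offsets gave 0.0598. For *Id2* they were the 4 libraries compared (0.0558 to 0.209), and for *Bmp4* the +IAA 0 h replicate 1 and +IAA 3 h replicate 2 libraries (0.241 and 0.189). At 6 h with IAA, 3 members rose, where 4.05% of all genes did. *Id1* went from 11.7 and 14.1 CPM to 20 and 22.0 CPM (log2 0.73, adjusted p = 0.00272), *Id3* from 7.76 and 8.37 CPM to 11.6 and 14.8 CPM (0.74, 0.00526), and *Bmp4* from 9.70 and 11.9 CPM to 16.5 and 19.9 CPM (0.78, 0.00496). Without the +IAA 0 h replicate 1 library these adjusted p-values were 0.0535, 0.0622, and 0.0798, and without the +IAA 6 h replicate 2 library those of *Id3* and *Bmp4* were 0.109 and 0.0812. Between 3 and 6 h with IAA, edgeR called 0 members in UTX-AID, where 0.289% of all genes were called. An unadjusted p under 0.05 was found for 3 members and for 1066 of the 16268 genes tested. *Id2* was at 5.11 and 5.91 CPM and then at 7.88 and 11.3 CPM (log2 0.80, SE 0.187, adjusted p = 0.127), and it was the 1 member that DESeq2 called (adjusted p = 0.0432). Without the filter on low counts its adjusted p was 0.0275.

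Whether the lines responded to RA to different extents was tested in one fit of all 24 libraries. At 6 h without IAA, *Id2* was the only member with a different response: its log2 fold change was lower in UTX-AID than in BAP1-AID by a difference of −0.86 (SE 0.196, adjusted p = 0.0477), where 0.505% of all genes differed. The replicates of *Id2* lay above the start in BAP1-AID and below it in UTX-AID. The call lay close to the threshold and was lost in 16 of the 24 fits that left out 1 library (log2 difference −0.68 to −0.90). Among these were fits without a library outside the comparison, such as BAP1-AID +IAA 3 h replicate 1 (log2 difference −0.85). At 3 h the difference for *Id2* was −0.44 (95% interval −0.88 to −0.01, adjusted p = 0.56). For *Id1* at 3 h it was 0.59 (95% interval 0.23 to 0.96, adjusted p = 0.176, and 0.0288 without the BAP1-AID −IAA 3 h replicate 1 library). For *Id3*, the difference was 0.52 at 3 h (adjusted p = 0.237) and −0.35 at 6 h (adjusted p = 0.472).

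The +IAA and −IAA arms of each line were compared in the RA response and in the level. Without an untagged line given IAA, depletion cannot be told apart from an effect of IAA or of its ethanol. IAA was started 2 h before RA, so the time in IAA grew with the time in RA. The length of depletion and the RA time therefore cannot be told apart in the +IAA arm. For the RA response, edgeR called 0 members in each of the 4 comparisons, and so did DESeq2. In BAP1-AID, 0.0% and 0.153% of all genes were called at 3 and 6 h. An unadjusted p under 0.05 was found for 1176 and 1615 of 15695 genes, and for 1 member at 3 h and 0 at 6 h. That member was *Bmpr1a* (−0.29, adjusted p = 0.579), which was called when the −IAA 3 h replicate 2 library was left out (−0.39, adjusted p = 0.0365). In UTX-AID, 2 members at each time had an unadjusted p under 0.05, beside 671 and 558 of 16268 genes at 3 and 6 h. There, 0.0123% and 0.0% of all genes were called. The members were *Id3* and *Smad6* at 3 h and *Id1* and *Bmp4* at 6 h. At 3 h the difference was −0.56 for *Id3* (95% interval −1.08 to −0.04) and −1.29 for *Smad6* (−2.77 to 0.19). In BAP1-AID at 6 h, the difference in log2 fold change was 0.18 for *Id1* (95% interval −0.16 to 0.52), 0.19 for *Id2* (−0.13 to 0.51), and 0.07 for *Id3* (−0.19 to 0.32). In UTX-AID it was 0.66 for *Id1* (0.18 to 1.13, adjusted p = 1.0), 0.41 for *Id2* (−0.22 to 1.04), and 0.24 for *Id3* (−0.29 to 0.76). Intervals use the SE and the t distribution with the residual degrees of freedom of the fit.

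Averaged over RA times, IAA went with more *Bmpr1a* in BAP1-AID. It was at 56.1 and 56.0 CPM without and 91.3 and 87.3 CPM with IAA at 0 h, at 61.1 and 53.9 against 77.2 and 71.3 CPM at 3 h, and at 60.9 and 56.7 against 81.2 and 84.5 CPM at 6 h. The arms did not overlap at any time, and the mean rise was 1.41-fold (log2 0.50, SE 0.0453, adjusted p = 5.94e-06). *Id1* was lower by a log2 value of −0.16 (SE 0.0571, adjusted p = 0.0486). These 2 of 10 members stand beside 36.1% of all genes called in this comparison. The log2 change with IAA ran with base composition in BAP1-AID: over the 15168 genes with a GC content its Spearman correlation with GC was −0.472, against 0.023 in UTX-AID, and the 932 genes within 1 point of the GC content of *Bmpr1a* had a median log2 change of 0.30. With GC and length offsets, the mean change of *Bmpr1a* was 0.18 (SE 0.0486, adjusted p = 0.0167) and that of *Id1* turned to 0.05 (adjusted p = 0.275). At 0, 3, and 6 h alone, the offset values of *Bmpr1a* were 0.247, 0.0895, and 0.194, and none passed (adjusted p = 0.082, 0.595, and 0.194). The *Id1* call was also lost in 10 of the 12 fits that left out 1 library (adjusted p = 0.0596 to 0.182), the exceptions being −IAA replicate 2 at 0 and 3 h. Without the latter library, *Id2* also passed (log2 0.13, adjusted p = 0.0306).

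In UTX-AID, edgeR and DESeq2 called 0 members with IAA averaged over RA times, where 2.62% of all genes were called. An unadjusted p under 0.05 was found for 4 members and for 2543 of the 16268 genes tested. *Bmpr1a* was at 108.2 and 108.5 CPM without and 111.0 and 111.6 CPM with IAA at 0 h, and its mean log2 change was −0.00 (95% interval −0.10 to 0.10). For *Id1*, *Id2*, and *Id3* the mean changes were −0.20 (95% interval −0.39 to −0.01), −0.28 (−0.54 to −0.02), and 0.25 (0.04 to 0.46), with adjusted p = 0.233, 0.208, and 0.159. The difference between the lines in the mean change with IAA passed for 3 members, where 25.9% of all genes passed: *Bmpr1a* (−0.52, SE 0.0645, adjusted p = 2.43e-06), *Id2* (−0.37, SE 0.115, adjusted p = 0.0197), and *Id3* (0.31, SE 0.0911, adjusted p = 0.0142). With GC and length offsets these were −0.18 (adjusted p = 0.0426), −0.36 (0.0247), and 0.08 (0.689), and *Id1* passed as well (−0.28, SE 0.0925, adjusted p = 0.0332, against −0.06 without them).

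The rest of the pathway was examined with a list of 60 further genes, with 51 passing the filter in BAP1-AID and 48 in UTX-AID. After 6 h of RA without IAA, 5 rose and 4 fell in BAP1-AID, and 5 rose and 4 fell in UTX-AID. Of all genes tested, 10.8% rose and 5.08% fell in BAP1-AID, and 4.28% rose and 2.62% fell in UTX-AID. For the 6 other receptors the median log2 fold change in BAP1-AID and UTX-AID was −0.02 and −0.06, and −0.10 and −0.07 for the 3 E proteins, the factors bound by ID proteins. With IAA at 6 h, all 3 E protein genes fell in BAP1-AID, where 6.44% of all genes fell. They were *Tcf3* (log2 −0.23, adjusted p = 0.0317), *Tcf4* (−0.42, 0.0103), and *Tcf12* (−0.45, 0.0334). Without IAA, 0 of the 3 were called. The difference between the arms was not examined for these genes, so calls in the +IAA arm alone do not show one. Of the 8 other targets, 2 rose and 1 fell in BAP1-AID and 3 of 6 tested rose in UTX-AID at 6 h. The intracellular inhibitors were the other group with calls in both directions, with 2 of 7 up and 1 down in BAP1-AID and 1 up and 1 down in UTX-AID.

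Among the targets, *Dusp9*, a phosphatase that acts on ERK, had the smallest adjusted p. It was at 40.4 and 43.1 CPM at 0 h, 160.2 and 157.3 CPM at 3 h, and 295.0 and 289.3 CPM at 6 h in BAP1-AID without IAA (log2 at 6 h 2.84, SE 0.0716, adjusted p = 2.11e-10). In UTX-AID it went from 43.2 and 43.6 CPM to 135.1 and 145.3 CPM at 6 h (log2 1.71, adjusted p = 6.68e-10), from nearly the same start. *Tbx3*, a T-box factor of naive ESCs, went from 7.87 and 7.67 CPM to 27.4 and 24.4 CPM in BAP1-AID (log2 1.76, SE 0.132, adjusted p = 2.02e-06) and from 11.1 and 7.95 CPM to 23.2 and 21.9 CPM in UTX-AID (log2 1.26, adjusted p = 3.63e-05).

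The co-receptor gene *Rgma* went from 1.10 and 1.14 CPM to 15.5 and 13.7 CPM in BAP1-AID at 6 h (log2 3.73, SE 0.146, adjusted p = 6.7e-09). In UTX-AID it went from 0.25 and 0.617 CPM to 2.78 and 2.95 CPM (log2 2.74, adjusted p = 0.00845), so that its level at 6 h was below that of BAP1-AID. With IAA at 6 h, *Rgma* rose in BAP1-AID (log2 3.33, adjusted p = 1.28e-08) but did not pass in UTX-AID (2.01, 0.0577). The inhibitors moved apart: *Ski*, a corepressor of SMADs, rose (log2 1.04 in BAP1-AID, SE 0.0737, adjusted p = 1.26e-06, and 0.68 in UTX-AID, adjusted p = 2.71e-05), whereas *Smad7*, the other inhibitory SMAD, fell (−1.21, SE 0.0849, adjusted p = 1.17e-06 and −0.67, adjusted p = 0.000227). *Smad7* thus fell at 6 h without IAA in both lines while *Smad6* rose. With IAA in UTX-AID, *Smad7* fell too (−0.59, adjusted p = 0.000684), but *Smad6* did not pass (1.07, adjusted p = 0.185).

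*Fst*, which encodes the antagonist follistatin, was at 8.87 and 8.44 CPM at 0 h and 1.10 and 1.89 CPM at 3 h in BAP1-AID (log2 −2.51, SE 0.245, adjusted p = 3.35e-05). In UTX-AID it was at 1.69 and 1.62 CPM at 0 h and at 0.397 and 0.234 CPM at 6 h (log2 −2.37, SE 0.598, adjusted p = 0.0235). These values are without IAA. With IAA, *Fst* went from 7.35 and 8.56 CPM at 0 h to 2.28 and 2.24 CPM at 6 h in BAP1-AID. In UTX-AID with IAA it was at 0.683 and 0.665 CPM and then at 0.265 and 0.68 CPM, so these times overlapped. Among low genes, *Hey1* fell in BAP1-AID at 6 h without IAA (log2 −2.99, SE 0.429, adjusted p = 0.000459) from 1.79 and 1.62 CPM. There, *Dlx5* fell at 3 h (log2 −4.33, SE 0.719, adjusted p = 0.00235) from 1.60 and 1.34 CPM to 0.0622 and 0.0773 CPM, which were 3 and 4 counts. At 6 h *Dlx5* was at 0.763 and 0.624 CPM. With IAA at 6 h, 0 of the 8 other targets were called lower in BAP1-AID. *Hey1* went from 1.21 and 1.28 CPM to 0.628 and 0.732 CPM in that arm, and *Dlx5* from 1.46 and 1.11 CPM to 0.491 and 1.32 CPM. *Dlx3* had 0 counts in both UTX-AID libraries at 0 h without IAA and rose to 0.857 and 0.945 CPM at 3 h (adjusted p = 0.00365). Against the floor of 3 counts per library, the lower of these was at least 13.4-fold higher. The plot of these genes by RA time shows the course in all 24 libraries.

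**Figure D5:**
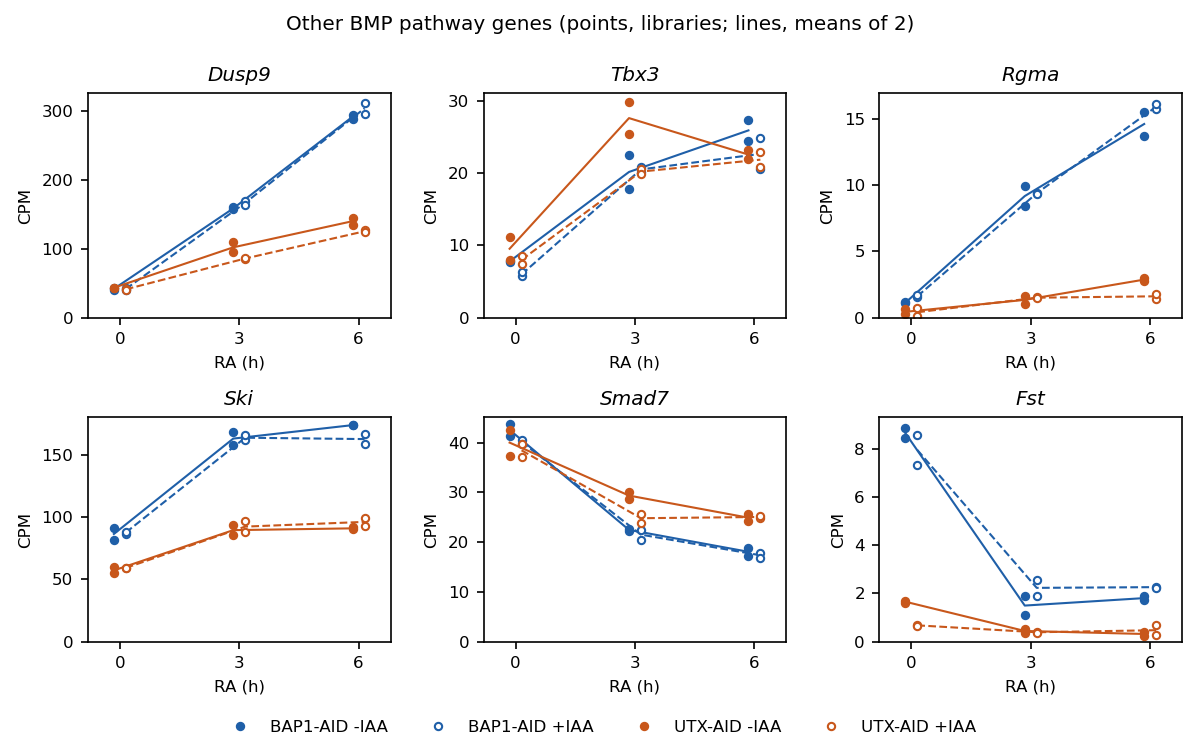
CPM (y axis, linear from 0) against hours of RA (x axis) for 6 other genes of the pathway, drawn as points for libraries and lines for means of 2 replicates, with −IAA filled, +IAA open, BAP1-AID blue, and UTX-AID orange. *Dusp9* started at 41.7 CPM in BAP1-AID and 43.4 CPM in UTX-AID without IAA and reached 292.2 CPM in BAP1-AID and 140.2 CPM in UTX-AID on average at 6 h, and *Fst* fell from 8.66 to 1.80 CPM in BAP1-AID.

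At 0 h without IAA, 7 of 53 tested genes of the list were higher and 20 lower in UTX-AID than in BAP1-AID, with a median log2 difference of −0.29, beside 25.4% higher and 27.2% lower among all genes. Among the receptors, *Bmpr2* (log2 1.61, adjusted p = 1.2e-11) and *Acvr2a* (1.20, 6.55e-09) were higher, and *Acvr1* (−1.58, 5.3e-07), *Acvr2b* (−1.15, 8.43e-10), and *Bmpr1b* (−1.14, 0.0348) were lower. *Smad1* (−0.76, 6.07e-05) and *Smad4* (−0.58, 2.96e-05) were lower and *Smad5* (0.38, 0.00824) was higher. Of 11 extracellular antagonists tested, 5 were lower, among them *Fst* (−2.38, 1.56e-06). Of the E proteins, *Tcf3* (−0.84, 4.46e-10) and *Tcf12* (−0.65, 0.000314) were lower and *Tcf4* (1.17, 8.92e-10) was higher. For the member *Bmpr1a*, GC and length offsets moved this difference from 0.95 to 0.15. The offsets were not examined for the genes of the list, so the part of GC content and length in their differences was not tested.

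Within a line, the members did not move as one. The Pearson correlation of log2 CPM over the 12 libraries of BAP1-AID was 0.95 between *Id3* and *Msx2*, 0.92 between *Id3* and *Smad6*, and 0.89 between *Id3* and *Bmp4*, but 0.29 between *Id3* and *Id2*. In UTX-AID, it was 0.55, 0.57, 0.59, and −0.64 for the same pairs. *Id1* and *Id2* had a correlation of 0.80 in BAP1-AID and −0.12 in UTX-AID. These are descriptions over libraries that share the RA time course, and no test was made of them.

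The genes most like each *Id* gene were sought among 11676 genes over the 24 libraries after centring each line. *Id3* had the closest partners, *Edn2* (r = 0.91), *Grasp* (0.90), and *Rhbdd2* (0.89). *Id2* was closest to *Ndnf* (0.80), *Shisa2* (0.76), and *Has2* (0.75), and *Id1* to *Map3k13* (0.78), *Tmem253* (0.73), and *Bmp4* (0.73). *Id4* was closest to *Tmem18* (0.71), *Hs3st3b1* (0.67), and *Zfp354a* (0.64). For *Zfp354a*, r was 0.87 within BAP1-AID and 0.19 within UTX-AID. These genes were picked as the highest of all those compared, and no test was made of them.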

How the data were processed

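RNA-seq was performed on 24 libraries of BAP1-AID and UTX-AID mouse ESCs (12 groups, 2 replicates each), assigned to groups from their labels. The submitters' processing notes name HISAT2 2.2.1, SAMtools 1.19, StringTie 2.2.1, and the mm39 build. The table deposited by the authors holds estimated counts per gene made from StringTie output, in whole numbers without normalization. The gene annotation, strandedness, and read length are not given in the sources used here. Depth was 42 to 54 M counts per library, and intervals and floors cover counting error or the spread between libraries only.

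Counts were analysed in R 4.3.3 with edgeR 4.0.16 (filterByExpr keeping genes by a count of at least 10 and a total of at least 15, TMM factors from 0.965 to 1.03, glmQLFit and glmQLFTest with one coefficient per group, two-sided). The 12 libraries of a line were fitted together, and all 24 for differences between lines, which gave 15695, 16268, and 16816 genes tested. The common biological variation came to 11.6% for BAP1-AID libraries and 11.9% for UTX-AID libraries. The code was tested on simulated data. Figures were drawn in Python 3.11.15 with matplotlib 3.10.9.

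Promoters and gene positions were read from GRCm39 with GENCODE vM39, in which 91.0% of the table's genes have a transcript of the same symbol. The 10 members, the pathway list, and the marker lists were chosen with earlier results of these data known. All members were named, and other pathway genes were named for the RA response where the adjusted p was under 0.05 and the absolute log2 fold change over 1 without IAA in either line. Those named for other comparisons were picked after their values were seen. Alternatives were DESeq2 1.42.0, RLE size factors, no filter, each library left out, the replicate number as a block, 1 fit of all 24 libraries, the study's call criteria, and offsets per library from splines with 5 degrees of freedom for GC content and for transcript length, estimated on genes with a mean log2 CPM above 1. The per-time effects of IAA, the 3 to 6 h change with IAA, and the difference between lines in the IAA effect and in the 3 h response were added after the data were seen.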

Additional observations from a re-analysis of the deposited data

Results flagged for a closer look

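Effects that differed between the lines by a test of the difference itself are listed here. The log2 fold change of *Id2* after 6 h of RA without IAA was lower in UTX-AID than in BAP1-AID (difference −0.86, adjusted p = 0.0477 by edgeR's quasi-likelihood test), with both BAP1-AID libraries at 6 h above both at 0 h and both UTX-AID libraries below both of theirs. This call lay close to the threshold and was lost in 16 of the 24 fits that left out 1 library. The change with IAA averaged over RA times differed for *Id2* (−0.37), *Id3* (0.31), and *Bmpr1a* (−0.52), all as UTX-AID minus BAP1-AID. With GC and length offsets these values were −0.36, 0.08, and −0.18, and that of *Id3* did not pass.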

How the results depend on the processing

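The 48 called log2 fold changes of members were refitted under 1008 alternatives in all, of which 907 kept direction and call, 99 kept direction and lost the call, and 2 turned direction; 20 of the 48 results kept their call in every alternative. Both turns were the change of *Id1* with IAA in BAP1-AID, 0.0509 with GC and length offsets and 0.0507 with these and the replicate block. DESeq2 kept all 48 calls.

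Counts of called members that moved by over 1.5 times were as follows. Under the study's criteria, which add 2-fold, they were 1 and 2 in BAP1-AID without IAA at 3 and 6 h (from 3 and 6). With IAA they were 1 and 2 (from 3 and 6). Between 3 and 6 h in BAP1-AID they were 0 without IAA (from 1) and 1 with IAA (from 2). For the change with IAA in BAP1-AID they were 0 averaged over RA times (from 2) and 0 at 0, 3, and 6 h alone (from 1 each). In UTX-AID they were 1 without IAA at 3 h (from 3), and 0 and 0 with IAA at 3 and 6 h (from 3 and 3). For differences between lines they were 0 for the 6 h response (from 1) and 0 for the averaged change with IAA (from 3). DESeq2 gave 5 in BAP1-AID with IAA at 3 h, 2 between 3 and 6 h, and 1 between 3 and 6 h in UTX-AID (from 0), where no filter and all 24 libraries in one fit gave 1 too. For IAA in BAP1-AID at 0, 3, and 6 h alone, the GC and length offsets gave 0 (from 1 each), with and without the block. The offsets gave 2 between 3 and 6 h in BAP1-AID, with and without the block. For IAA averaged over RA times in BAP1-AID they gave 1, as did RLE, no filter, and all 24 libraries. That last fit gave 2 for UTX-AID at 6 h without IAA (from 1). Smaller moves were 4 in BAP1-AID without IAA at 3 h with DESeq2 or the offsets, 4 at 6 h with all 24 libraries, 2 at 3 h in each UTX-AID arm with the offsets, and 7 between lines under the study's criteria.

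With each library left out, the lone library of its group was taken to vary like the other groups, and counts ranged from 2 to 3 and 2 to 6 in BAP1-AID without IAA at 3 and 6 h, 2 to 5 and 3 to 6 with IAA, 1 to 2 between 3 and 6 h, 1 to 3 for IAA, and 0 to 1 for the RA response altered by IAA at 3 h. In UTX-AID they ranged from 1 to 3 and 0 to 1 without IAA and 0 to 3 and 0 to 3 with IAA. Between lines they were 7 to 9 at 0 h and 0 to 1 for the 6 h response.

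Replicates of different groups shared only a number: deviations of same-numbered libraries correlated at −0.0387 to 0.0627 in BAP1-AID and −0.012 to 0.073 in UTX-AID over 15 pairs of groups each. The replicate block kept all 48 calls and moved 3 counts in UTX-AID, to 2 at 6 h and 1 between 3 and 6 h without IAA, both through *Id3* (adjusted p = 0.0441 and 0.0353), and to 1 between 3 and 6 h with IAA (from 0) through *Id2* (0.0435). With the GC and length offsets and the block these were also 2, 1, and 1. Members under 1 CPM, such as *Msx2* and *Msx1* in UTX-AID, are limited by depth.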

Other observations

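Of the 60 other pathway genes, 8 were higher and 1 lower with IAA averaged over RA times in BAP1-AID. The higher genes included the receptors *Bmpr2* (log2 0.68, adjusted p = 2.3e-06), *Bmpr1b* (0.66, 0.00622), and *Acvr2a* (0.46, 0.000153) and the SMAD corepressor gene *Skil* (0.46, 1.36e-06), and the lower one was *Chrd* (−1.15, 0.0291), which encodes the antagonist chordin. The share of all genes called in that comparison was 36.1%, and its log2 changes ran with GC content (Spearman −0.472). In UTX-AID, *Dusp9* (−0.16, 0.0444) was the 1 gene of the list that passed. These genes were picked after their values were seen and were not examined with GC and length offsets.

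With IAA, *Fst* was at 7.35 and 8.56 CPM at 0 h of RA in BAP1-AID and at 0.683 and 0.665 CPM in UTX-AID. *Rgma* at 6 h was at 15.7 and 16.1 CPM in BAP1-AID and at 1.42 and 1.79 CPM in UTX-AID with IAA, so the difference between the lines in these genes was present in that arm as well.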
